A study of Mus musculus with 4 samples.

Results

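Plasma cells of the mouse intestine were taken from a single-cell RNA series of intestine and brain, as barcodes rich in RNA of antibody genes. A barcode was kept with at least 500 UMIs (unique molecular identifiers, counted RNA molecules), 200 genes and at most 20% mitochondrial UMIs. A kept barcode was called a plasma cell when Igha, Ighm, Igkc, Jchain, Iglc1, Iglc2 and Iglc3 together made up at least 10% of its UMIs, when Mzb1, Derl3, Tnfrsf17 and Prdm1 together had at least 1 UMI, when Ms4a1 had none and when Epcam had at most 1. The rule found 62 plasma cells among 10647 kept barcodes of the NPs intestine and 91 among 16967 of the untreated intestine, 153 of 27614 in all. The cells were thus chosen by measured UMIs of these genes, whose levels are given as a description with no test. Step by step, 155 kept barcodes of the NPs intestine and 408 of the untreated intestine met the 10% limit, 104 and 197 of them also had a UMI of a plasma cell gene, 102 and 130 of those had no Ms4a1 UMI, and 62 and 91 of those met the limit on Epcam.

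The series holds 4 droplet libraries, 1 per group, from wild-type mice. The intestine groups are NPs for 1 week and untreated, and the brain groups are NPs for 2 months and untreated. The labels do not spell out NPs and do not give the number of animals behind a library. They name BALB/c mice of 5 weeks and ICR mice of 6 months without tying a strain to a tissue or a treatment, and give the tissue as intestine where the series' design text says colon. With 1 library a group, no difference below has a replicate check. The 95% intervals are exact (Clopper-Pearson for shares, conditional binomial for ratios of counts) and cover counting error only, and cells of 1 library are not replicates.

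Plasma cells are the end stage of B cells, which give up the B cell programme (Pax5, Ms4a1) and turn the cell over to antibody secretion under the factors Prdm1, Irf4 and Xbp1. In the gut wall most of them make IgA, which is joined into dimers by the J chain (Jchain) and carried by the epithelium into the lumen. The load of secreted protein is met by an enlarged endoplasmic reticulum (ER), with its chaperones, translocation channel and quality control. When that load rises, the sensors of the unfolded protein response act through Xbp1 and Atf6 on the ER stress response element (ERSE), a promoter motif of chaperone genes.

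Promoters of ER genes are shown because most genes of the ER lists stood well above the other barcodes in these cells. ERSE, spelled CCAAT, any 9 bases, then CCACG, and searched on both strands in the 250 bases before each gene's start, was found in 7 of 18 matched promoters of the ER chaperone and folding list (38.9%), against 33 of 27025 promoters in all (0.122%). The 7 are Hspa5, Hsp90b1, Calr, Canx, Creld2, Dnajc3 and Pdia6. Derl3, which helps pull misfolded proteins out of the ER and is one of the rule's genes, also holds a match, as does its partner Syvn1. The second motif searched, TGACGTGG, was in 1 of the 18 (5.56%), against 136 of 27025 (0.503%). Since ERSE is known as a motif of chaperone promoters, its share in this list is background and not a result of these cells. A match is a run of letters and not a shown site of binding. The sequences of 4 such genes are from RefSeq (GRCm38.p6), 5′ to 3′ on the gene's strand, with ERSE matches in capitals on either strand. They are Hspa5, chr2:34771840-34772089 on the plus strand, Hsp90b1, chr10:86705445-86705694 on the minus strand, Derl3, chr10:75893148-75893397 on the plus strand, and Creld2, chr15:88819396-88819645 on the plus strand.
Hspa5: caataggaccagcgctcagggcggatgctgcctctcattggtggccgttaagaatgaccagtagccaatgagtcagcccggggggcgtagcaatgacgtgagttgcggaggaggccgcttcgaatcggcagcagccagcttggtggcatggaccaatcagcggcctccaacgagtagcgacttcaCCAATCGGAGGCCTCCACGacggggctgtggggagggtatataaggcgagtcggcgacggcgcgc
Hsp90b1: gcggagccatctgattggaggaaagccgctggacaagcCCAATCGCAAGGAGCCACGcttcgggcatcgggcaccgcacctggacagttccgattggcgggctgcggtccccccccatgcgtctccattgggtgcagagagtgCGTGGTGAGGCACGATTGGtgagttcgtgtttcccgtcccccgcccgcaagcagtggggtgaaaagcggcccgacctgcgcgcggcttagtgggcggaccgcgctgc
Derl3: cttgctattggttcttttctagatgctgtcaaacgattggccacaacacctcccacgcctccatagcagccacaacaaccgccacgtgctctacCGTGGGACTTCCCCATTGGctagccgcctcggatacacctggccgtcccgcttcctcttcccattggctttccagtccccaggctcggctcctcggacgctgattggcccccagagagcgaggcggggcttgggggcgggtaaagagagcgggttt
Creld2: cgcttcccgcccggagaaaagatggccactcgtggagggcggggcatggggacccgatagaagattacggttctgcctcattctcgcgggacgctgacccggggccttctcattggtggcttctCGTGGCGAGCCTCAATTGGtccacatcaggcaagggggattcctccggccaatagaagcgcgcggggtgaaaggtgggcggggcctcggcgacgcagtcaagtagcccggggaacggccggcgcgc
Hsp90b1 holds 2 matches, in opposite orientations, and the others hold 1 each. In Hspa5 the match lies from -65 to -47 relative to the start, and in Derl3 from -156 to -138. Hspa5 (BiP, the main ER chaperone) stood at 2044 CPM in NPs plasma cells, against 1879 CPM in untreated plasma cells, where the other kept barcodes had 598 and 374 CPM. CPM here are the pooled UMIs of the cells of a library, scaled so that their UMIs outside immunoglobulin genes and Jchain sum to 1000000.

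The 2 intestinal libraries differed in more than their label. Kept barcodes held a median of 6289 UMIs in the NPs library and 2463 in the untreated one, and 46.5% of NPs and 16.7% of untreated barcodes were over the mitochondrial limit. Posterior Hox genes (groups 10 to 13) made up 9.78% of Hox UMIs in the other NPs barcodes and 77.2% in the other untreated barcodes, so that gut region, strain, age and treatment cannot be told apart. The libraries shared 104 barcodes, none of them a plasma cell in both, and 1 of the 62 NPs plasma cell barcodes also occurred in the untreated library. No doublet caller was run. Only the limits on Ms4a1 and Epcam act against doublets.

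The plasma cells of the libraries overlapped widely in depth and quality. The median was 8951 UMIs (668 to 19744) and 1329 genes in NPs plasma cells, and 9546 UMIs (520 to 22312) and 1317 genes in untreated plasma cells. Mitochondrial UMIs had a median of 0.926% and 0.932%. All immunoglobulin genes and Jchain together made up 58.6% of the pooled UMIs of NPs plasma cells and 58.8% of those of untreated plasma cells, with per-cell medians of 52.5% and 49.6%. The quartiles per cell were 37.2% and 67.5% in NPs plasma cells, and 29.9% and 68.2% in untreated ones, so the spread between cells was far wider than the gap between libraries. Just inside the 10% limit were cells at 11.0%, 12.6% and 13.0% in the NPs library and at 10.2%, 10.2% and 10.3% in the untreated one. Barcodes that met every other condition and fell just outside were at 6.28%, 4.73% and 3.86%, and at 9.63%, 7.08% and 4.54%.

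**Figure D1:**
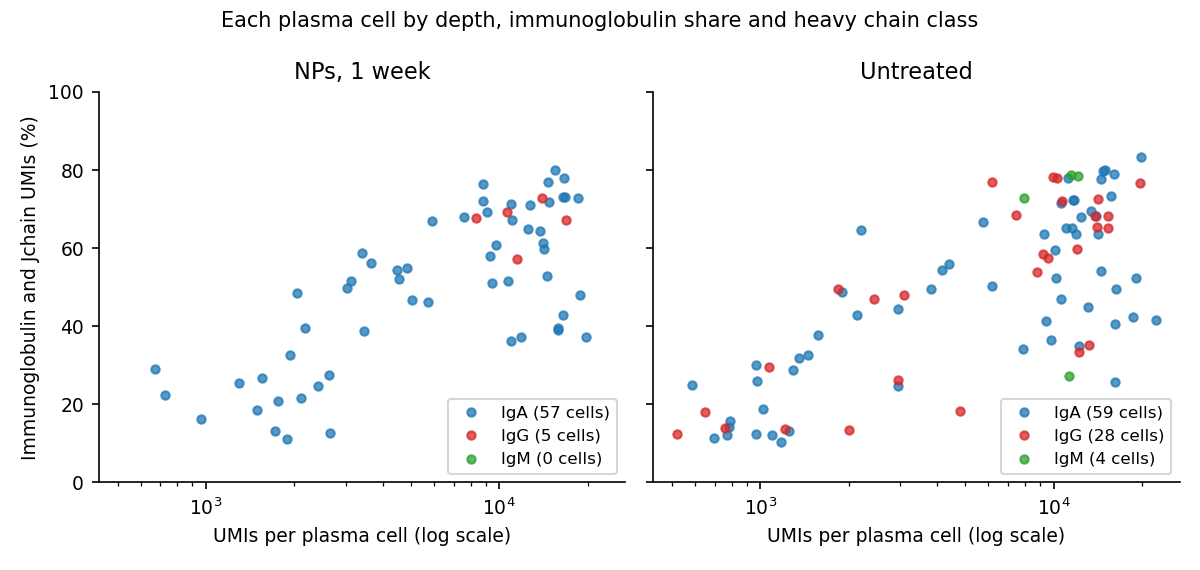
Each point is a plasma cell, with its UMIs on a log axis and the percent of its UMIs from immunoglobulin genes and Jchain on the vertical axis, for NPs (left, 62 cells) and untreated intestine (right, 91 cells). Colour gives the main heavy chain class, and IgG cells make up 5 of the NPs and 28 of the untreated plasma cells.

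Of the 9 plasma cell markers, 6 are genes of the rule (Jchain, Igha, Mzb1, Derl3, Tnfrsf17 and Prdm1), so their levels above the other barcodes were fixed by the choice of cells. The remaining 3 also stood above the other kept barcodes in both libraries. Sdc1 (syndecan 1, the surface marker CD138) was at 383 and 279 CPM in NPs and untreated plasma cells, Irf4 at 275 and 209 CPM, and Xbp1 at 1949 and 1158 CPM. Derl3, Tnfrsf17 (the survival receptor BCMA) and Prdm1 (the factor Blimp-1) were at 635 and 590.3 CPM, 437 and 489 CPM and 234 and 238 CPM. Mzb1, a cofactor of antibody assembly, had only 6 and 15 UMIs, or 27.0 and 47.6 CPM. Of the B cell markers, Ms4a1 was 0 by the rule, Cd22 had 0 UMIs in both libraries, and Pax5 had 0 in NPs and 1 in untreated plasma cells. Cd79b, a chain of the B cell receptor, was still at 405 and 695 CPM.

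Genes that stood furthest above the other kept barcodes in both libraries are a description only, since the rule chose the cells by their RNA. After Tnfrsf17 they were Ccr10, at 339 times the other NPs barcodes and 215 times the other untreated barcodes, Derl3, Ly6c2 and the calcium channel subunit Cacna1s. Ly6c2, which has a close copy in Ly6c1, was at 1657 and 2463 CPM in NPs and untreated plasma cells, and Cacna1s at 302 and 203 CPM. Eaf2, a cofactor of transcript elongation, was at 954 and 1349 CPM, and the receptor Tnfrsf13b (TACI) at 302 and 314 CPM. Of 19 measured genes of the plasma cell identity list, 18 stood at least 2-fold above the other barcodes in both libraries. The same held for 15 of 20 genes of ER chaperones and 18 of 19 of ER translocation, and for none of 22 of oxidative phosphorylation and glycolysis.

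Markers of several other cell types were present as well. Absorptive epithelium markers, all 7 with UMIs, summed to 2008 CPM in NPs plasma cells and 539.5 CPM in untreated ones, 11.9% and 5.53% of their level in the other barcodes. Goblet cell markers summed to 1895 and 508 CPM, with 6 and 5 of 6 detected. Mast cell markers summed to 27.0 and 479 CPM, and T cell markers to 49.5 and 260.2 CPM, with 3 and 6 of 6 detected. In the other barcodes T cell markers summed to 47.3 CPM in the NPs library and 846 CPM in the untreated one. Dendritic cell markers summed to 36.0 and 60.3 CPM in NPs and untreated plasma cells, above the 4.83 and 19.4 CPM of other barcodes. NK cell or innate lymphoid cell markers were at 36.0 and 12.7 CPM, against 10.9 and 38.2 CPM there. Endothelial markers were at 13.5 and 19.0 CPM, against 14.9 and 10.9 CPM. Macrophage or monocyte markers summed to 734 and 6.35 CPM, against 322 and 29.7 CPM in the other barcodes, with 6 and 1 of 6 detected, and 96.5% of the Lyz2 UMIs of NPs plasma cells were in 1 barcode. Fibroblast markers reached 4.50 and 0 CPM, and neutrophil and tuft cell markers were at 0 in both. Every NPs plasma cell held at least 2 UMIs of such markers, epithelial ones included, and the part of the epithelial markers in the differences between the libraries was not tested. For markers of 7 non-epithelial types, leaving out barcodes with at least 5 such UMIs kept 59 NPs and 88 untreated plasma cells, and took the log2 ratios of Birc5, Rgs2 and Rgs1 to -3.53, -3.55 and -3.32. Its values for Lyz2 and Ccl4 are given beside these genes.

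Plasma cells were a small share of both libraries, with overlapping intervals: 0.582% (0.447 to 0.746) of kept NPs barcodes and 0.536% (0.432 to 0.658) of kept untreated barcodes. Among barcodes with a UMI of the leukocyte gene Ptprc or called plasma cells, they made up 7.89% (62 of 786, 6.10 to 10.0) in the NPs library and 1.16% (91 of 7843, 0.935 to 1.42) in the untreated one. The second base differs between the libraries: barcodes with at least 2 Ms4a1 UMIs and a B cell receptor chain, below the 10% limit, numbered 1 in the NPs library and 1864 in the untreated library. The share of all kept barcodes also follows the mitochondrial limit, and was 0.840% in the NPs library at a limit of 10% and 0.317% with none.

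IgA was the main class in both libraries and held a larger share in the NPs library. The heavy chain class of a cell was its constant gene with the most UMIs, given at least 10 heavy chain UMIs and 60% of them in 1 gene, which resolved every plasma cell. Igha (chr12:113254830-113260236, minus strand, GRCm38) led in 57 of 62 NPs plasma cells (91.9%, 82.2 to 97.3) and in 59 of 91 untreated plasma cells (64.8%, 54.1 to 74.6). An IgG gene led in 5 of 62 NPs cells (8.06%, 2.67 to 17.8) and in 28 of 91 untreated cells (30.8%, 21.5 to 41.3). The intervals of the libraries do not overlap for either class. The rule counts Igha and Ighm but no IgG gene toward its 10% limit, in both libraries. Antibody-rich barcodes with no UMI of a plasma cell gene were taken at any level of Ms4a1 and Epcam. They were IgA in 44 and IgG in 0 of 51 NPs barcodes, and IgA in 125 and IgG in 75 of 211 untreated barcodes. Under the 10 alternatives run, the IgA share stayed between 86.8% and 93.4% in NPs and between 62.5% and 70.8% in untreated plasma cells. By subclass, Ighg2b led in 3 NPs and 13 untreated cells, Ighg2c in 2 and 11, and Ighg3 in 0 and 4. IgM led in 0 of 62 NPs cells, which allows a share of up to 4.84% by 3 counts (exact upper limit 5.78%), and in 4 of 91 untreated cells (4.40%). Ighg2a, which some strains carry in place of Ighg2c, was not analysed here, and Ighg2b and Ighg2c are close copies, so the split between them is uncertain.

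**Figure D2:**
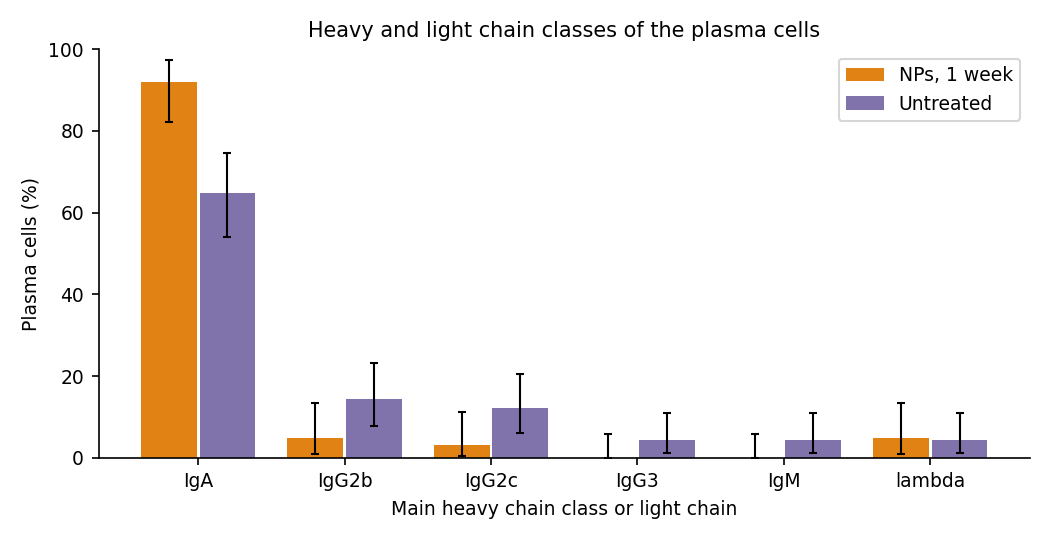
Bars give the percent of plasma cells with each main heavy chain class, and with a lambda light chain, in NPs (left bar, 62 cells) and untreated intestine (right bar, 91 cells), and lines give exact 95% intervals. IgA is at 91.9% against 64.8%. Each IgG subclass is lower in the NPs library, but the intervals of each subclass overlap, as do those of lambda.

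Antibody RNA was also found in barcodes with at least 5 Epcam UMIs, at far lower levels. No limit on antibody UMIs was set for these barcodes. They include some that failed the rule on Epcam alone, which reached 49 Epcam UMIs in the NPs library and 86 in the untreated one. The part of such barcodes in the levels was not tested. Igkc was found in 84.4% of the NPs and 85.7% of the untreated barcodes with at least 5 Epcam UMIs, at 0.0695% and 0.0837% of their UMIs, while it made up 39.1% and 38.7% of the UMIs of plasma cells. Igha was in 69.2% and 38.8% of those epithelial barcodes, which had median depths of 11942 and 12274 UMIs. The leading heavy gene held a median of 100% of a cell's heavy chain UMIs in NPs plasma cells (lowest 77.1%) and 99.3% in untreated ones (lowest 67.7%). The light chain was kappa in 59 of 62 NPs cells and in 87 of 91 untreated cells. Lambda, from the closely related Iglc1, Iglc2 and Iglc3 genes, led in 3 of 62 (4.84%, 1.01 to 13.5) and 4 of 91 (4.40%, 1.21 to 10.9). Jchain made up 4.39% of the UMIs of NPs plasma cells and 4.82% of those of untreated ones. It was 4.51% and 5.26% in IgA cells, and 3.51% and 3.64% in IgG cells.

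Variable genes were spread over many family members in both libraries. A main Igkv gene, with at least 5 UMIs and 60% of the cell's Igkv UMIs, was found in 41 NPs cells, which used 27 genes, and in 59 untreated cells, which used 28. The most used were Igkv1-110 in 5 of 41 NPs cells (12.2%, 4.08 to 26.2) and Igkv3-2 in 6 of 59 untreated cells (10.2%, 3.82 to 20.8). A main Ighv gene was found in 25 cells of each library, with 18 genes used in NPs cells and 16 in untreated cells. Ighv14-3, Ighv6-3 and Ighv9-3 led in 3 NPs cells each, and Ighv3-2 led in 4 untreated cells. Of 24 NPs cells with both chains, 3 shared the pair of Ighv6-3 and Igkv1-110, 2 shared Ighv14-3 and Igkv3-4, and 2 shared Ighv9-3 and Igkv2-112. Of 22 such untreated cells, 2 pairs recurred, each in 2 cells. These libraries count transcript ends, so the V genes are those whose reads reached them, and a shared pair is not a shown clone.

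Between the libraries, plasma cells of the NPs intestine carried more RNA of 15 of 18 immediate early and heat shock genes and of Ccr10. They carried less of Crip1, of 5 of 9 cell cycle genes and of 4 of 20 ER chaperones, while 2 of these 20 were higher. The list counts are at 1.5-fold, reached by 13.1% of all measured genes upward and 11.4% downward. Without the limit on Epcam, none of the cell cycle genes was 1.5-fold lower. Of 1531 measured genes, with at least 50 UMIs over both libraries and a mean of at least 50 CPM, 1117 were at or above the level of the other barcodes in the library where they were higher. Of these 1117, 48 were at least 2-fold higher in NPs plasma cells (4.30%) and 32 at least 2-fold lower (2.86%). Each of the 80 had a counting interval clear of a ratio of 1. The limits of 2-fold and 50 UMIs all but fix that outcome, so it lends the calls no support. Without the condition on the other barcodes, 78 of 1531 genes reached 2-fold in the NPs direction (5.09%) and 43 in the other (2.81%). Over all 1531, the median log2 ratio was -0.06.

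Lyz2 (lysozyme, a macrophage product) came first, at 387 CPM in NPs plasma cells, against 0 in untreated plasma cells, but nearly all from the 1 barcode named above. With a floor of 3 UMIs in place of that 0, it was 40.7-fold higher (lower limit of the interval 32.4). Without barcodes holding at least 5 UMIs of non-epithelial markers, its level in NPs plasma cells was no longer above that floor. Cxcl10, a chemokine induced by interferon (chr5:92346638-92348889, minus strand), was at 1161 CPM in NPs plasma cells, against 111 CPM in untreated plasma cells, 10.5-fold (interval 7.33 to 15.3) higher. It was found in 30.6% of NPs and 14.3% of untreated plasma cells, and 1 cell held 25.2% of its NPs UMIs. Its log2 ratio of 3.39 was 1.93 with cells weighted equally and 1.48 after thinning each cell to 500 UMIs outside antibody genes. The chemokine Ccl4 was 10.3-fold higher, with 65.5% of its NPs UMIs in 1 cell, and its log2 ratio was -1.97 without barcodes holding at least 5 UMIs of markers of non-epithelial cell types and -0.47 without the limit on Epcam. The adhesion protein Icam1 was at 203 CPM in NPs plasma cells, against 34.9 CPM in untreated plasma cells. It had a UMI in 35.5% of NPs and 8.79% of untreated plasma cells, so that its higher level was spread over more cells than that of Lyz2 or Ccl4.

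The mitochondrial leucyl-tRNA synthetase Lars2 was at 275 CPM in NPs plasma cells, against 60.3 CPM in untreated plasma cells, 4.55-fold (interval 2.68 to 8.07) higher, but the other kept barcodes showed 209 and 56.6 CPM, also higher in the NPs library. The scaffold protein Ahnak was 4.21-fold higher and Dennd4a 3.98-fold higher, and in the other barcodes both were lower in the NPs library (252 against 435 CPM for Ahnak). Tmem160, the rRNA gene CT010467.1 and the early response gene Ier5 were 3.64-, 3.65- and 3.72-fold higher. All were also higher in the other barcodes of the NPs library, at 61.8 against 38.2 CPM, 83.3 against 31.4 CPM and 71.7 against 36.5 CPM. The log2 ratio of Ahnak was 0.87 without the limit on Epcam and that of Ier5 0.97 with cells weighted equally, both short of 2-fold. The remaining 2 of the 12 highest, Junb and Fosb, belong to the immediate early list.

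Crip1, a small LIM-domain protein, was the most abundant of the 12 lowest genes (chr12:113146316-113153879, plus strand). It was at 3016 CPM in NPs plasma cells, against 9552 CPM in untreated plasma cells, a ratio of 0.316 (0.290 to 0.343). In IgA cells alone it was at 3224 CPM in the NPs library and 12600.1 CPM in the untreated one, although 1 untreated IgA cell held 32.2% of the UMIs. Birc5 (survivin, a mitotic protein) had the lowest ratio, 0.214 (0.0879 to 0.453), on 8 and 53 UMIs. Rgs2 and Rgs1, which damp signals of G protein-coupled receptors, were at ratios of 0.228 and 0.331, Rrm2 and Hmgn2 at 0.370 and 0.370, and the surface proteins Slamf6 and Cd48 at 0.355 and 0.383. Gmfg, Bpgm, Ctse and Snrpg were between 0.317 and 0.415. After thinning each cell to 500 UMIs outside antibody genes, the log2 ratios of Slamf6 and Rrm2 turned to 0.13 and 0.54, and that of Birc5 was -0.68. Without the limit on Epcam the log2 ratio of Birc5 turned to 0.48, and those of Rrm2, Hmgn2, Slamf6, Bpgm and Snrpg were -0.02, -0.24, -0.57, -0.89 and -0.47, all short of 2-fold. In IgA cells Rgs2 had a ratio of 0.630 (0.243 to 1.54) on 9 and 15 UMIs, Ctse of 0.679 (0.288 to 1.54) and Bpgm of 0.525 (0.230 to 1.13), which are short of 2-fold with intervals that hold 1, and the interval of Slamf6, at 0.477 (0.202 to 1.05), also holds 1. For Rgs1 the order turned in IgA cells, at 124 CPM in the NPs library and 75.5 CPM in the untreated one, on 25 and 16 UMIs.

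**Figure D3:**
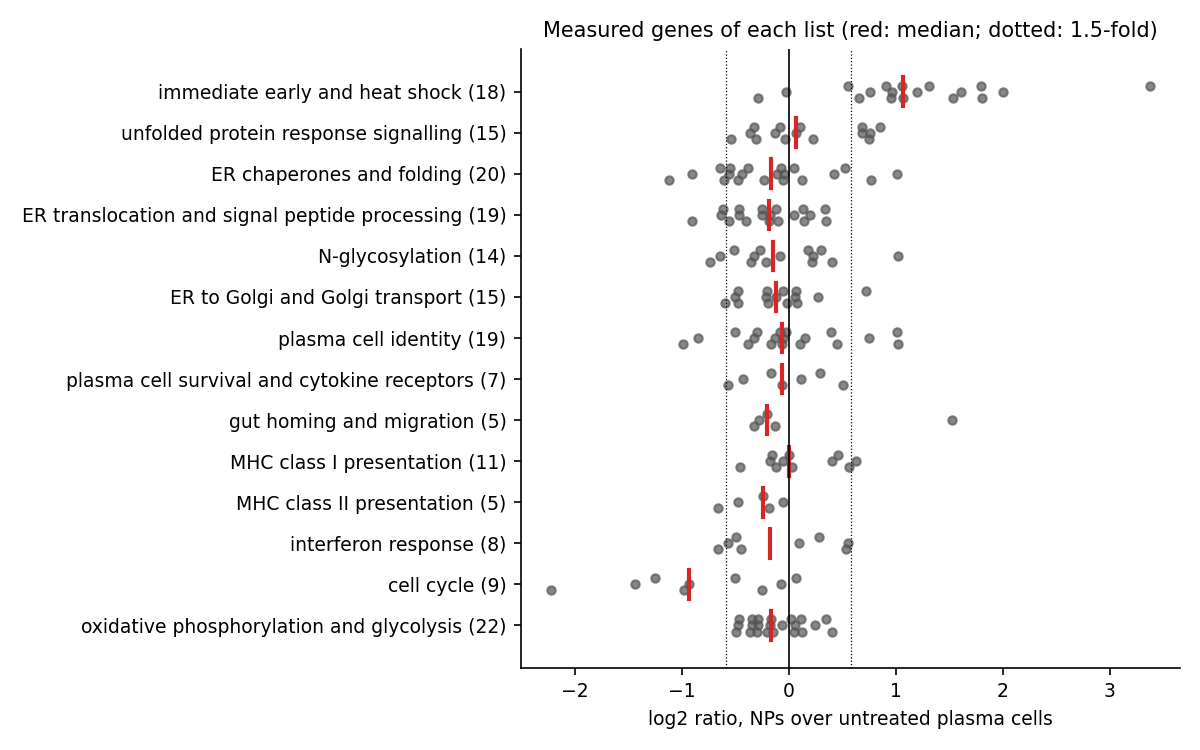
Each point is a measured gene, placed by its log2 ratio of NPs over untreated plasma cells (horizontal axis) in the row of its list, with the number of measured genes in brackets, red lines at the medians and dotted lines at 1.5-fold. Immediate early and heat shock genes lie to the right, with a median of 1.06, cell cycle genes to the left, with a median of -0.93, and the medians of the ER lists lie between -0.19 and 0.07.

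NPs plasma cells carried more RNA of most immediate early and heat shock genes. These genes switch on quickly after a stimulus, and code for transcription factors of the AP-1 and other families and for cytosolic chaperones. Of 18 measured genes of 21, 15 reached a level 1.5-fold higher and none a level 1.5-fold lower, with a median log2 ratio of 1.06. Over all 1531 measured genes, 13.1% reached 1.5-fold higher and 11.4% reached 1.5-fold lower. In the other kept barcodes 11 of the 18 were at least 1.5-fold higher in the NPs library, with a median of 0.76, so a gap in the same direction was found outside plasma cells. Per plasma cell, the summed level of the list had a median of 19749 CPM in the NPs library and 9674 CPM in the untreated one, with quartiles of 14862 and 34592, and of 4807 and 15448, so the cells of the libraries overlapped.

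Among the AP-1 subunits, Junb (chr8:84974484-84978718, minus strand) was at 626 CPM in NPs plasma cells, against 60.3 CPM in untreated plasma cells, 10.4-fold (interval 6.40 to 17.8) higher. It was found in 67.7% of NPs and 15.4% of untreated plasma cells. In the other barcodes Junb stood at 425 CPM in the NPs library and 230.2 CPM in the untreated one, a smaller gap. The log2 ratio of Junb in plasma cells, 3.38, was 2.37 without the limit on Epcam and 4.40 in IgA cells. Jun was at 4740.4 CPM in NPs plasma cells, against 2066 CPM in untreated plasma cells, Fos at 4412 CPM in NPs plasma cells, against 1780.4 CPM in untreated plasma cells, and Fosb at 1053 CPM in NPs plasma cells, against 263 CPM in untreated plasma cells. Jund had a ratio of 3.06 (2.41 to 3.92). The zinc finger factors Klf2 and Klf6 were at 792 and 273 CPM and at 972 and 463 CPM in NPs and untreated plasma cells. The heat-inducible chaperone Hspa1a was at 1495 CPM in NPs plasma cells, against 428 CPM in untreated plasma cells, and Hspa1b, its near-identical neighbour, at 1049 and 539.5 CPM. The constitutive Hspa8 had a ratio of 1.57 (1.28 to 1.93) and Hsp90aa1 one of 1.69 (1.48 to 1.94). Btg2 and Hsph1, at ratios of 0.981 and 0.820, were not higher, and Zfp36, at 1.47, fell short of 1.5-fold.

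**Figure D4:**
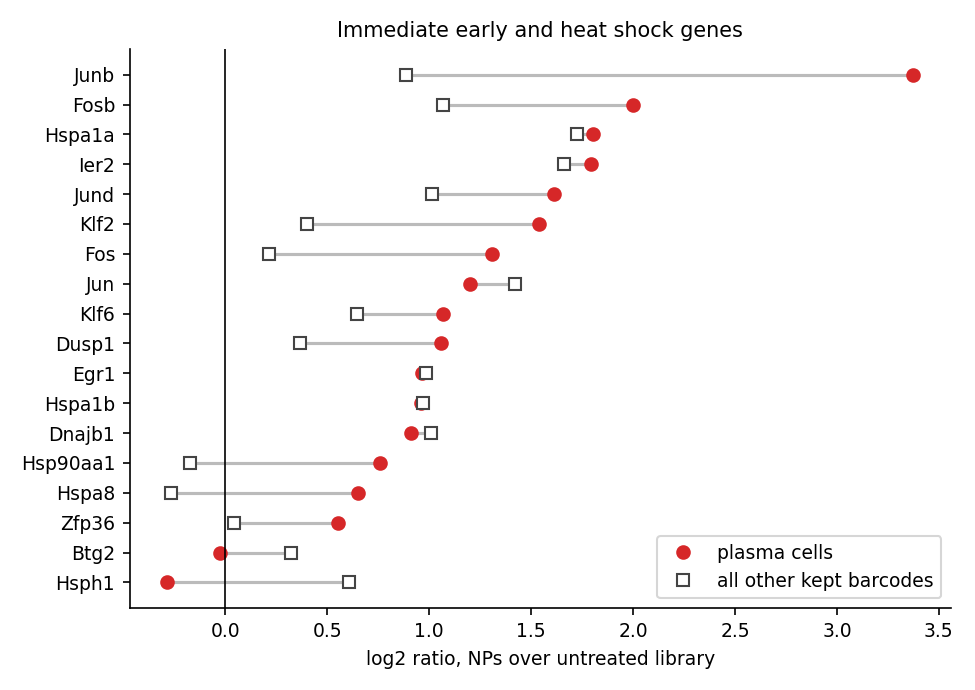
For each of the 18 measured immediate early and heat shock genes, the log2 ratio of the NPs over the untreated library is drawn for plasma cells (red points) and for all other kept barcodes (open squares). Junb is at 3.38 in plasma cells, and most squares also lie to the right of 0.

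The secretory machinery showed no single direction. Its counts stand against 13.1% of all 1531 measured genes 1.5-fold higher and 11.4% lower. Of 20 measured ER chaperone and folding genes, 2 were at least 1.5-fold higher in NPs plasma cells and 4 lower, with a median log2 ratio of -0.17, whereas in the other barcodes 13 of the 20 were at least 1.5-fold higher in the NPs library and the median was 0.68. Hsp90b1 (GRP94), the chaperone shown above with 2 ERSE matches, was the most abundant, at 7122 CPM in NPs plasma cells, against 10863 CPM in untreated plasma cells, a ratio of 0.656 (0.617 to 0.696). Pdia4, a disulfide isomerase, was at 576 CPM in NPs plasma cells, against 1082 CPM in untreated plasma cells, and Dnajb9, a cochaperone of BiP, at 117 CPM in NPs plasma cells, against 254 CPM in untreated plasma cells. Hyou1 had a ratio of 0.642 (0.379 to 1.06). Against these, Txndc5 (chr13:38500079-38528824, minus strand), another disulfide isomerase, was at 2746 CPM in NPs plasma cells, against 1361 CPM in untreated plasma cells, 2.02-fold (interval 1.78 to 2.29) higher, and Sdf2l1 was 1.71-fold (interval 1.33 to 2.20) higher. Hspa5, Creld2, Dnajc3 and Canx, all with an ERSE match, had ratios between 0.961 and 1.09, while Calr and Pdia6, which also hold one, were at 0.719 and 0.677. Genes with a match were thus found both near a ratio of 1 and below it.

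Of 15 measured genes of the unfolded protein response, 5 were at least 1.5-fold higher (13.1% over all measured genes) and none lower (11.4%). The median log2 ratio of the 15 was 0.07. The count of 5 higher was 1 after thinning each cell to 500 UMIs outside antibody genes and 3 without the limit on Epcam. Xbp1, the factor that drives the secretory programme, was at 1949 CPM in NPs plasma cells, against 1158 CPM in untreated plasma cells, a ratio of 1.68 (1.46 to 1.94), and within IgA cells the ratio was 1.60 (1.36 to 1.88). Derl1 and Herpud1, parts of the export route for misfolded proteins, had ratios of 1.61 (1.16 to 2.23) and 1.61 (1.26 to 2.06). Ppp1r15a, which restores translation after stress, was at 1.69 (1.10 to 2.61), and the stress factor Ddit3 at 1.81 (0.996 to 3.31), an interval that holds 1. Atf4 and Atf6 were at 0.977 and 1.17. Of 19 measured genes of ER translocation, 3 were at least 1.5-fold lower and none higher, led by Sec61g, a channel subunit, at 221 CPM in NPs plasma cells, against 413 CPM in untreated plasma cells, with Ssr3 and Ssr2 at ratios of 0.643 and 0.651. In N-glycosylation 1 of 14 was higher, the mannosidase-like Edem2 at 644 CPM in NPs plasma cells, against 317 CPM in untreated plasma cells, and 2 were lower, Stt3a and Rpn2. In ER to Golgi transport 1 of 15 was higher, Tmed2, and 1 lower, Sar1b. No gene of oxidative phosphorylation and glycolysis passed 1.5-fold either way among 22.

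Of 5 measured genes of gut homing and migration, 1 was at least 1.5-fold higher (13.1% over all measured genes), Ccr10. It codes for the receptor of the chemokines CCL27 and CCL28, the second of which is made by mucosal epithelium and draws IgA plasma cells (chr11:101172997-101175443, minus strand). It was at 540.2 CPM in NPs plasma cells, against 187 CPM in untreated plasma cells, 2.89-fold (interval 2.10 to 4.01) higher, where the other barcodes held 1.59 and 0.871 CPM. A Ccr10 UMI was found in 66.1% of NPs and 30.8% of untreated plasma cells, and in 0.765% and 0.326% of the other barcodes. Within IgA cells the levels were 545 CPM in the NPs library and 269 CPM in the untreated one, a ratio of 2.03 (1.46 to 2.84), with a UMI in 37 of 57 and 27 of 59 cells. The other 4 measured genes of the list stayed within 1.5-fold: the integrin chains Itga4 and Itgb7 had ratios of 0.797 (0.552 to 1.14) and 0.915 (0.494 to 1.66), and Selplg and Cd9 of 0.869 and 0.823. Ccr9, the small intestinal homing receptor, had too few UMIs to be measured, 2 in 57 NPs IgA cells and 14 in 59 untreated IgA cells.

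None of 7 measured genes of survival and cytokine receptors passed 1.5-fold, with Tnfrsf17 at a ratio of 0.893 (0.686 to 1.16), Tnfrsf13b at 0.960 (0.693 to 1.32), the costimulator Cd28 at 0.741 (0.530 to 1.03) and the antiapoptotic Mcl1 at 1.08 (0.832 to 1.40). In the identity list 3 of 19 were higher (Edem2, Txndc5 and Xbp1) and 2 lower (Cd79a and Cd38), against 13.1% and 11.4% over all measured genes. Cd79a, a signalling chain of the B cell receptor (chr7:24897381-24902197, plus strand), was at 828 CPM in NPs plasma cells, against 1647 CPM in untreated plasma cells, a ratio of 0.503 (0.423 to 0.596), but within IgA cells the ratio was 0.913 (0.734 to 1.13). Of 3 measured B cell genes, 1 was lower, Cd79b, at a ratio of 0.583 (0.451 to 0.748). Of 3 measured cytokine and effector genes 1 was higher, Ccl4, and of 3 genes of lipid and amino acid supply 1 was higher and 1 lower. Xist, the only measured gene of the sex-linked list, was at 1634 and 1650.3 CPM in NPs and untreated plasma cells.

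The lists of antigen presentation and interferon response stand against the same 13.1% higher and 11.4% lower over all measured genes. For class I, 1 of 11 genes was higher, the immunoproteasome subunit Psmb8 at 900.4 and 584 CPM in NPs and untreated plasma cells. For class II, 1 of 5 genes was lower, H2-Aa at 482 and 762 CPM. In the untreated library, where all 5 were higher, 4 of the 5 lay below the other barcodes, and 40.2% of the H2-Aa UMIs of NPs plasma cells were in 1 cell. Of 8 measured interferon response genes, 1 was lower, Ly6a at 765 and 1212 CPM, and none higher. In the other barcodes 7 of the 8 were at least 1.5-fold lower in the NPs library, with a median log2 ratio of -2.25, against -0.18 in plasma cells. Isg15 and Ifi27l2a were at 329 and 308 CPM and at 3088 and 2136 CPM, with 57.5% of the Isg15 UMIs of NPs plasma cells in 1 cell.

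Of 9 measured cell cycle genes, 5 were at least 1.5-fold lower (Birc5, Rrm2, Pclaf, Top2a and Ube2c) and none higher, against 11.4% and 13.1% over all measured genes. The median log2 ratio of the 9 was -0.93 (-0.78 for the same genes in the other barcodes). Without the limit on Epcam, with 102 NPs and 130 untreated cells, the median was 0.66 and none of the genes was 1.5-fold lower, and in IgA cells 3 were among the genes that still met the limits on UMIs and CPM. Mki67, the usual marker of cycling cells, was at 284 and 298 CPM in NPs and untreated plasma cells. After thinning to 500 UMIs, at least 2 UMIs of 10 cycle genes were found in 4 of 62 NPs cells (6.45%, 1.79 to 15.7) and 10 of 91 untreated cells (11.0%, 5.40 to 19.3), intervals that overlap widely. Without thinning the shares were 25.8% and 29.7%, and with antibody genes at 20% or more of the UMIs they were 1.75% and 5.26% after thinning. A single cell held 62.5% of the Birc5 UMIs of NPs plasma cells, and one held 22.6% of those of untreated plasma cells.

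Within the untreated library, the 28 IgG cells were set against the 59 IgA cells. Tnfrsf17, Ccr10, Txndc5 and Crip1 were among the genes lower in IgG cells, and Cd79a and Vpreb3 among those higher. The comparison and its genes were chosen after the values were seen, no gene list was counted in it, and the heavy chain genes that define the classes are left out of it. The median depth was 9015 UMIs in IgG cells and 9809 in IgA cells. Of 648 genes measured by the same limits and at or above the other untreated barcodes, 26 were at least 2-fold higher in IgG cells (4.01%) and 33 at least 2-fold lower (5.09%).

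Tnfrsf17 (chr16:11313812-11320074, plus strand) had 0 UMIs in the 28 IgG cells and 152 UMIs, or 717 CPM, in 38 of the 59 IgA cells. With 3 UMIs in place of the 0 over the IgG cells, its level there was 0.0477 times that in IgA cells (upper limit of the interval 0.0594). It is one of the 4 genes of which the rule asked for a UMI, and the IgG cells met that condition by the others: Derl3 was at 536 CPM in IgG cells and 613 CPM in IgA cells, and Prdm1 at 274 and 212 CPM. The related receptor Tnfrsf13b was at 183 CPM in IgG cells and 382 CPM in IgA cells. Ccr10 had 2 UMIs in 1 of the 28 IgG cells (3.57%, 0.0904 to 18.3) and 57 UMIs in 27 of the 59 IgA cells (45.8%, 32.7 to 59.2), a ratio of 0.0848 (0.0100 to 0.321).

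Txndc5 was at 331 CPM in IgG cells, against 1741 CPM in IgA cells, a ratio of 0.190 (0.125 to 0.278). It was found in 15 of 28 IgG cells and 46 of 59 IgA cells. Hsp90b1 did not follow it, at 11099 and 11095 CPM, and Xbp1 was at 1095 and 1160.5 CPM. Crip1 was at 3662 CPM in IgG cells, against 12600.1 CPM in IgA cells, Emp3 at a ratio of 0.327 (0.168 to 0.587), and Mt1, Tmem176b, Ifitm3 and Utp3 at 0.0883, 0.186, 0.284 and 0.326. A single IgA cell held 43.4% of the Mt1 UMIs of IgA cells, and 1 held 32.2% of those of Crip1. Mt1 had a UMI in 18 of the 59 IgA cells.

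On the other side, Cd79a was at 3000.1 CPM in IgG cells, against 868 CPM in IgA cells, a ratio of 3.46 (2.85 to 4.20), and Vpreb3, a B-lineage protein, at 1357 CPM in IgG cells, against 208 CPM in IgA cells. The class II genes H2-Aa and H2-Ab1 had ratios of 2.74 (2.09 to 3.59) and 2.77 (2.01 to 3.82), and Ptprc one of 2.96 (1.80 to 4.93). Cxcr3, a receptor for interferon-induced chemokines, had 22 UMIs in IgG cells and 12 in IgA cells, 251 and 56.6 CPM. For the 2 largest ratios, most UMIs of the IgG cells were in single cells: 1 IgG cell held 72.7% of the Apoe UMIs and 1 held 77.4% of the Slpi UMIs. For Rgs1 it was 51.3%. Apoe had a UMI in 14 of the 28 IgG cells and 4 of the 59 IgA cells, and Slpi in 12 and 16.

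The 5 IgG cells of the NPs library were not compared with its IgA cells, and their values are given for themselves. Ccr10 had a UMI in 4 of the 5 (interval 28.4% to 99.5%), and Tnfrsf17 had 4 UMIs in them. Txndc5 was at 3118 CPM in NPs IgG cells and 331 CPM in untreated IgG cells. Since the libraries differ in their share of IgG cells, the ratios of NPs over untreated were also taken within IgA cells. Junb had a ratio of 21.2 (9.45 to 58.8) in IgA cells, Cxcl10 of 6.99 (4.80 to 10.5), Fosb of 3.61 (2.71 to 4.87), Edem2 of 2.07 (1.51 to 2.86) and Txndc5 of 1.56 (1.36 to 1.78), all higher in the NPs library, and Hsp90b1 of 0.647 (0.606 to 0.691). Tnfrsf17, at 0.893 over all plasma cells, was at 0.642 (0.491 to 0.837) in IgA cells.

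**Figure D5:**
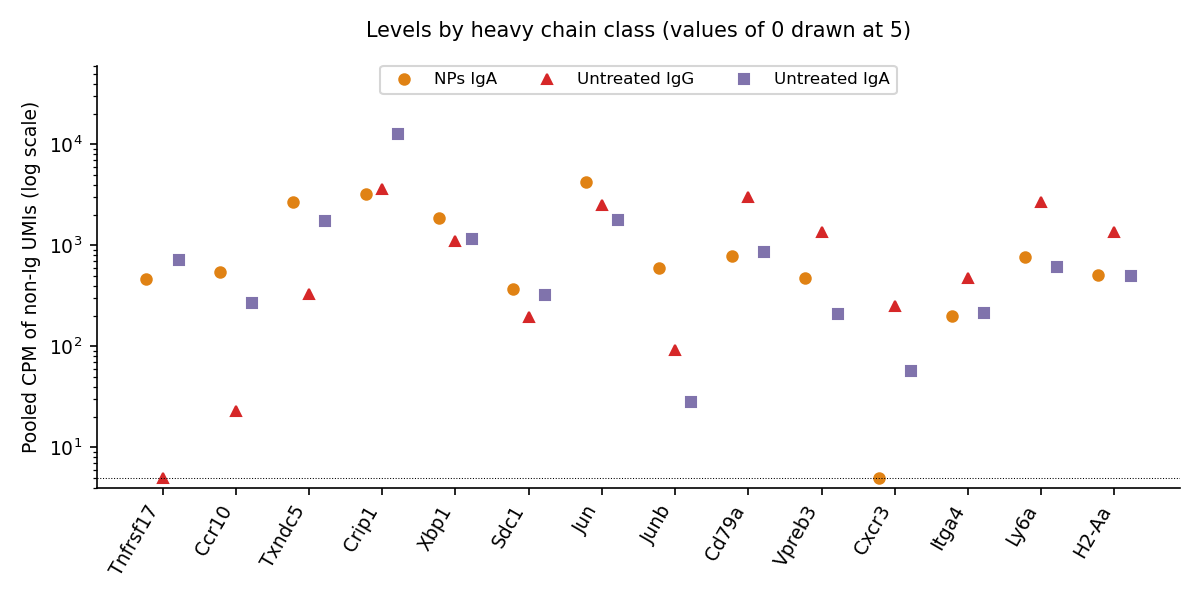
Pooled CPM on a log axis for 14 genes in NPs IgA cells (circles, 57 cells), untreated IgG cells (triangles, 28 cells) and untreated IgA cells (squares, 59 cells), with values of 0 drawn at 5 CPM. Tnfrsf17 is at 0 in untreated IgG cells, Ccr10 and Txndc5 are lowest there, and Cd79a and Vpreb3 are highest there.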

How the data were processed

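RNA of single cells was captured by 10x droplets (3′ v3 kit, per the labels' protocols) in 4 libraries. The deposited matrices hold raw UMI counts per gene and barcode for 55450 genes, which the authors made with Cell Ranger 5.0.1 on GRCm38, per the submitters' processing notes. Per the labels' protocols, enzymes (collagenase IV, DNase I and papain) released the cells, and lysis of red cells and depletion of dead ones followed. The filters these matrices had passed before deposit are not given in the sources used here.

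UMIs of the plasma cells of a library were summed and divided by their UMIs outside immunoglobulin genes and Jchain, to give CPM. A 3 UMI floor replaced 0 in bounds. No count model and no p-value was used, since each group is 1 library. Calls are at least 2-fold for genes and 1.5-fold for lists. Named are the 12 highest and 12 lowest genes at or above the other barcodes of the higher library, leaving out immunoglobulin, mitochondrial, ribosomal protein, haemoglobin, Gm and Rik genes. Also named are up to 5 most abundant and 3 most different genes of each list, the markers, the constant genes and the most used V genes. Singled out after their values were seen are the comparison of IgG with IgA cells and its genes, the leading genes over other barcodes, and Ccr9 and Cxcr3. The members and lists were chosen with earlier results of these data known. Steps were tested on simulated data. Doublets were not called. All feature IDs were found in GENCODE release 21 of the mouse, which gave the positions. No per-sample value of another series was used. Total counts were 127772838 UMIs in the NPs intestine and 116394801 in the untreated intestine. Tools were Python 3.11.15, numpy 2.4.6, scipy 1.17.1, pandas 2.3.3 and matplotlib 3.10.9. Alternatives changed the limits on barcodes, the scaling and the limits on measured genes.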

Additional observations from a re-analysis of the deposited data

How the results depend on the processing

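With 1 library a group, no library could be left out. No paired analysis was possible because each group holds a single sample. The IgA share moved by less than its counting interval in both libraries under the 10 alternatives run for each. Leaving out barcodes with at least 2 UMIs of markers of other cell types left 0 NPs and 6 untreated plasma cells, so it gave no values. Alternatives chosen after seeing the data are no Epcam limit, at least 5000 UMIs, at least 5 UMIs of non-epithelial markers, IgA cells alone, and those of IgG over IgA. The causes of the shifts that follow were not tested.

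The NPs plasma cell share was 0.840% at a mitochondrial limit of 10%, 0.317% with no such limit and 0.958% with no Epcam limit. The untreated share was 0.766% with no Epcam limit and 1.11% at 5000 UMIs. At 20% antibody UMIs the cycling shares were 1.75% (NPs) and 5.26% (untreated), and not thinned 25.8% and 29.7%. At 5000 UMIs the NPs cycling and lambda shares were 0, and the antibody share per cell was 66.0% (NPs) and 65.2% (untreated).

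Genes at least 2-fold higher and lower in NPs numbered 22 and 6 with CPM over all UMIs, 75 and 63 with cells weighted equally, 11 and 9 after thinning, 182 and 137 at 20 UMIs and 20 CPM, and 14 and 3 at 200 UMIs and 100 CPM. The higher count was 110 with no Epcam limit and 78 with no condition on other barcodes. IgG over IgA gave 91 higher and 142 lower at 20 UMIs and 20 CPM, and 7 and 6 at 200 UMIs and 100 CPM. It gave 57 higher with no Epcam limit and 13 with CPM over all UMIs.

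The unfolded protein response count was 3 with no Epcam limit, 1 thinned and 2 at 200 UMIs. Lower cell cycle genes numbered 0 with no Epcam limit (median log2 ratio 0.66, reversed), 2 with CPM over all UMIs, 0 at 200 UMIs and 3 in IgA cells, where fewer genes were measured. List medians shifted for cytokines (1.99 at 20% antibody UMIs, 2.55 at 5000 UMIs, 1.89 over all UMIs, 2.21 in IgA cells), class II (-0.65 without 5 marker UMIs, -0.74 weighted equally, -0.76 thinned), B cell genes (-0.67 weighted equally, 0.27 in IgA cells), interferon (-0.86 thinned, 0.34 in IgA cells), N-glycosylation (-0.57 thinned) and the sex-linked gene (0.22 with no Epcam limit, 0.20 thinned). Reversed log2 ratios were Ccl4 (-0.47 with no Epcam limit, -1.97 without 5 marker UMIs), Birc5 (0.48 with no Epcam limit), Slamf6 and Rrm2 (0.13 and 0.54 thinned) and Rgs1 (0.71 in IgA cells).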

Other observations

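Antibody-rich barcodes outside the rule fell into 3 kinds. Those that failed on Epcam alone numbered 40 in the NPs intestine and 39 in the untreated one, with median depths of 12686 and 13276 UMIs, and were of the IgA class in 38 and 33 cases. Those with a plasma cell gene but also Ms4a1 numbered 2 and 67, and of the 67 untreated ones 34 were of an IgG class, 21 IgA and 10 IgM. Those with no UMI of a plasma cell gene numbered 51 and 211, with median depths of 864 and 1050 UMIs.

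In the brain libraries the same rule found 2 of 12189 kept barcodes in the NPs brain (1 IgA and 1 IgG) and 1 of 11668 in the untreated brain (IgA).

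Among plasma cells called kappa, 23 of 59 in the NPs intestine and 45 of 87 in the untreated intestine held at least 5 UMIs of the lambda variable gene Iglv1. Their lambda constant UMIs had medians of 21 and 19 per cell. The 3 lambda cells of the NPs intestine held a median of 1 kappa UMI, and the 4 of the untreated intestine a median of 71.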
